A study of Mus musculus with 60 samples.

Results

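The enzymes that write and erase chemical marks on histones and DNA were followed here through 191 of the 45037 probe sets of the array, which measure 76 of its 18193 named genes. The members were chosen by gene symbol, with earlier results of these data known. They cover DNA methyltransferases (Dnmt), TET dioxygenases, lysine acetyltransferases (Kat, Crebbp, Ep300), histone deacetylases (Hdac), arginine methyltransferases (Prmt, Carm1), lysine methyltransferases (Kmt, Setd, Ehmt, Ezh, Suv39h2) and lysine demethylases (Kdm). Sirtuins were not members. Male B6C3F1 hybrid mice, housed singly, gave the RNA, and 3 tissues were hybridised, namely the heart, the gastrocnemius (muscle below) and the neocortex. Old CR mice ate a diet that the labels give as 40% restricted, although the amounts of food in the study's methods come to a milder restriction, and old resveratrol mice ate the control diet with 4.9 mg of resveratrol per kg of body weight. Old control mice ate the AIN93M control diet. These 3 groups were 30 months old. CR and resveratrol began at 14 months, and old controls stayed on the control diet that all had eaten before. Young controls were 5 months old and ate the control diet. Each tissue and group had 5 arrays, each labelled as a separate biological replicate, for 60 arrays in all.

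Histone tails carry acetyl and methyl groups that set how open chromatin is and which proteins bind it, and DNA carries methyl groups on cytosines that mostly go with silent promoters. Acetyltransferases and deacetylases act against each other, as do methyltransferases and demethylases, while the TET enzymes oxidise methylcytosine and so begin its removal. Several of these enzymes use metabolites of intermediary metabolism (acetyl-CoA, S-adenosylmethionine, 2-oxoglutarate) as co-substrates, and the class IIa deacetylases are known as regulators of growth and fibre type in heart and skeletal muscle.

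Values are linear signals in arbitrary units, with every array scaled to the same trimmed mean of 500. A signal ranks the arrays for 1 probe set and says nothing of the level of another. A change is given on the log2 scale, followed by its SE from limma, and a probe set is said to have risen or fallen where its Benjamini-Hochberg adjusted p from limma was under 0.05 over all 27022 probe sets tested in the tissue. Of the members, 148 were bright enough to be tested in heart, 137 in muscle and 145 in neocortex, and 125 were tested in all 3 tissues. The other members lay under the 40th percentile of signal in at least 1 tissue, 28 of them in every tissue, and Dnmt3l, a cofactor without catalytic activity, was tested nowhere. In pieces of whole tissue, fewer cells of a type and less RNA per cell cannot be told apart.

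The defining markers of the labelled tissues were above the limit of detection used here, with 7 of 7 cardiomyocyte genes in heart, 8 of 8 muscle fibre genes in muscle and 6 of 6 neuronal genes in neocortex. Arrays differed in ways that moved with the groups. In heart, the 3' probe set of beta-actin exceeded its 5' probe set by 1.25 to 1.66 log2 units in old controls, outside the range of old CR (0.66 to 0.90), old resveratrol (0.68 to 0.96) and young control arrays (0.61 to 0.87). The same difference for Gapdh was -0.08 to 0.25 in old control hearts, also above old CR (-0.28 to -0.25), old resveratrol (-0.27 to -0.17) and young control arrays (-0.28 to -0.14). In muscle it was -0.30 to -0.24 in old CR and -0.30 to -0.23 in old resveratrol, against -0.22 to 3.23 in old controls, the highest in replicate 1, and -0.28 to 0.19 in young controls. In muscle, the poly-A transcripts spiked into the RNA before labelling averaged 9.05 to 10.44 log2 units in old CR and 9.67 to 10.16 in old resveratrol arrays, against 6.12 to 6.99 in old controls and 6.45 to 8.08 in young controls. Diet and labelling cannot be told apart in muscle. In neocortex these transcripts averaged 9.32 to 9.91 in old resveratrol arrays, against 8.36 to 9.04 in old controls. The neocortex ranges were 8.32 to 9.44 in old CR and 8.70 to 9.73 in young controls. Resveratrol and labelling cannot be told apart in neocortex either. In neocortex the beta-actin difference was 0.66 to 0.77 in old CR and 0.76 to 1.01 in old resveratrol, against 0.45 to 0.60 in old control and 0.54 to 0.71 in young control arrays. Muscle old control replicate 1 and young control replicate 4 stood apart from their groups by beta-actin differences of 1.40 and 1.11, and heart young control replicate 1 by a summed signal of dividing-cell markers of 33880, against 5273 to 7994 in the other 4 young hearts. The part of these measures in the changes below was not tested.

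Both diets changed members in all 3 tissues, and age changed them mainly in heart, a pattern that the whole set of probe sets shared. Under CR, 32 of 148 members changed in heart (10 rose and 22 fell), against 20.4% of all probe sets (10.2% up and 10.2% down). The share among members was 21.6%. In muscle 41 of 137 changed (17 rose, 24 fell), with a background of 32.8% (19.4% and 13.4%). In neocortex 46 of 145 changed, 8 up and 38 down, with a background of 26.4%, of which 11.7% rose and 14.6% fell. Falls thus made up 26.2% of the members tested in neocortex.

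Under resveratrol, 20 members changed in heart, where 1 rose and 19 fell (background 15.2%, of which 7.51% rose and 7.64% fell). In muscle 32 changed, with 16 in each direction (background 20.4%, with 10.7% up and 9.73% down). In neocortex 47 changed, with 9 rises and 38 falls (background 24.1%, with 11% up and 13.1% down). Both diets were set against the same old controls, so their counts are not independent of each other. The median member changed by -0.20 under CR and -0.07 under resveratrol in neocortex, where the median over all probe sets tested was -0.02 and -0.01. In heart the medians were 0.03 for CR and -0.14 for resveratrol, beside 0.08 and 0.05 for all probe sets. In muscle they were 0.01 and 0.06, beside 0.16 and 0.10, and quantile normalization moved the median of all probe sets under CR in muscle to 0.03. With age, 17 members changed in heart (10 rose, 7 fell, background 12%, with 5.4% up and 6.58% down), 2 fell in muscle (background 0.729%, with 0.229% up and 0.5% down) and none passed the threshold in neocortex (background 0.751%), where 16 members had an unadjusted p under 0.05 in limma and 0 passed the methods' t-test after adjustment.

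**Figure D1:**
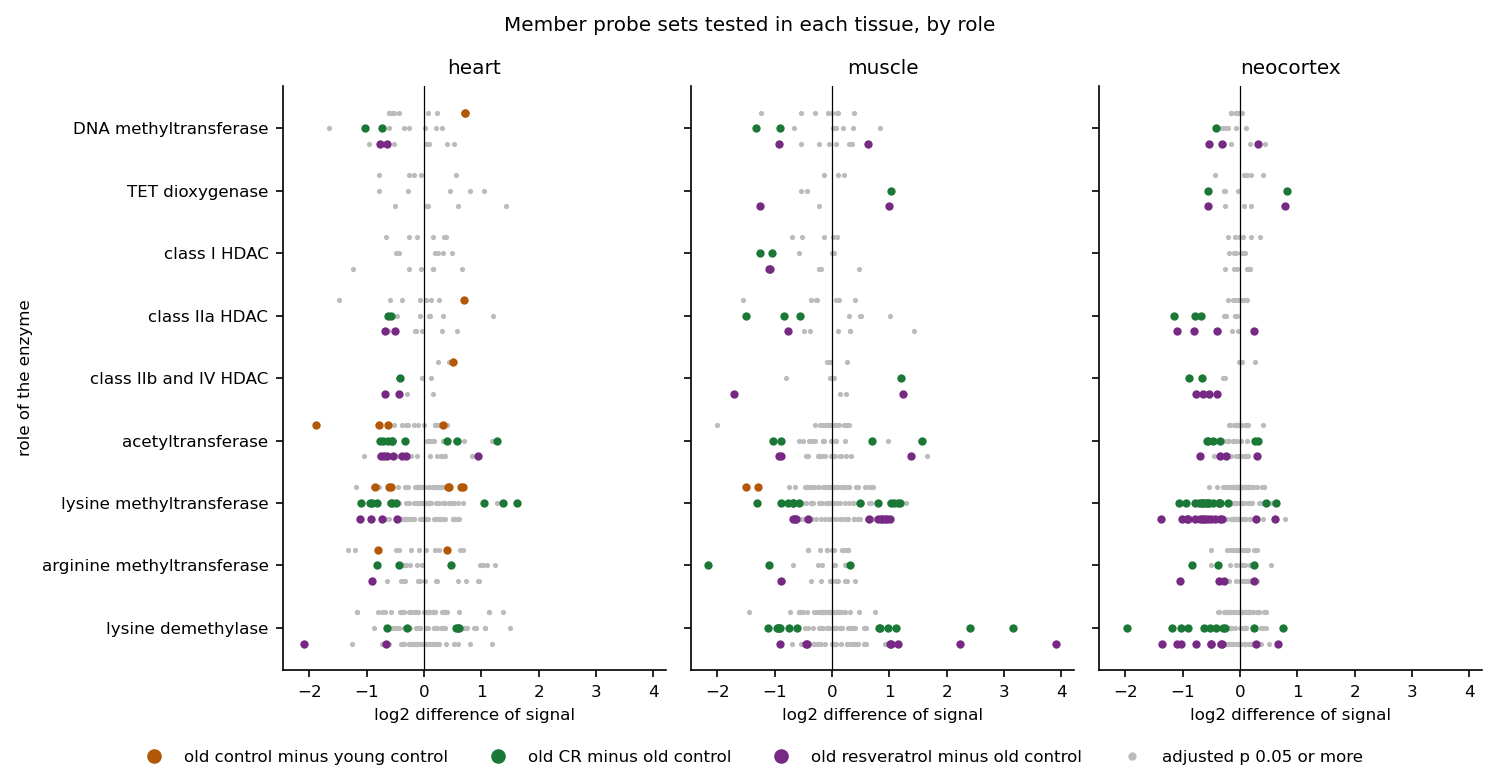
Each point is 1 member probe set, placed by its log2 difference of signal in heart, muscle or neocortex and grouped by the role of the enzyme. Coloured points passed the threshold for old control minus young control, old CR minus old control or old resveratrol minus old control, and grey points did not. In neocortex 38 members fell under each diet, and the muscle panel holds the only rises above 2 log2 units, all of demethylases.

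Dnmt3a, which places new methyl groups on DNA, was the DNA methyltransferase that changed most widely. In heart the signal of probe set 1423063_at was 895, 589.8, 723, 813 and 879.7 in old controls, against 416, 393, 501, 533 and 522 in young controls. It was 424, 489, 390.2, 471 and 556 in old CR and 565, 479.9, 474, 402 and 563 in old resveratrol hearts. All old controls were above every other heart. The log2 difference was 0.72 (SE 0.16, adjusted p = 0.00301) with age, -0.74 (SE 0.16, adjusted p = 0.00127) under CR and -0.65 (SE 0.16, adjusted p = 0.00542) under resveratrol, and all 3 calls held on leaving out any 1 array.

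In muscle the same probe set gave 525, 244, 429, 418 and 487 in old CR, 458, 306, 401, 457 and 422 in old resveratrol and 540.4, 889.5, 978, 816 and 689.5 in old controls. Every animal on either diet was below every old control. The fall was -0.91 (SE 0.23, adjusted p = 0.00484) under CR and -0.92 (SE 0.23, adjusted p = 0.00681) under resveratrol, while age gave -0.29 (SE 0.23, adjusted p = 0.58). In neocortex the signals were 662, 506, 506, 572 and 548 in old CR, 564, 574, 681, 589 and 625 in old resveratrol and 674, 771, 709.9, 808 and 791 in old controls. The CR group lay entirely below the controls and the resveratrol group overlapped them at 1 array. The difference was -0.43 (SE 0.11, adjusted p = 0.00413) for CR and -0.31 (SE 0.11, adjusted p = 0.0357) for resveratrol, and the second call was lost without old resveratrol replicates 1, 2 or 4 or old control replicates 2, 4 or 5 (adjusted p between 0.0678 and 0.083). The age difference of this probe set differed between the tissues (adjusted p = 0.0109, interaction F test), and the differences for CR (adjusted p = 0.234) and resveratrol (adjusted p = 0.126) did not pass.

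A second Dnmt3a probe set, 1460324_at, gave 409, 207, 415, 419.8 and 312 in old CR, 649, 409.6, 305, 275 and 538 in old resveratrol, 729, 534, 655, 759 and 858 in old control and 410.3, 431, 412, 417 and 446 in young control hearts. As with the first, old controls were highest, and only the resveratrol group overlapped them. The differences were -1.03 (SE 0.22, adjusted p = 0.00143) under CR, -0.76 (SE 0.22, adjusted p = 0.0206) under resveratrol and 0.72 (SE 0.22, adjusted p = 0.0332) with age. The resveratrol call was lost without old resveratrol replicates 3 or 4 or old control replicate 5 (adjusted p between 0.0589 and 0.0787) and the age call without old control replicates 1, 4 or 5 or young control replicates 2, 3 or 4 (adjusted p between 0.0557 and 0.0864). The resveratrol call of this probe set was also lost with the methods' t-test (adjusted p = 0.105). In muscle it fell under CR by 1.32 on the log2 scale (399.8, 111, 466, 551 and 632 in old CR, 1094, 946, 1003, 834 and 801 in old controls, adjusted p = 0.00264), and CR replicate 2 was far below the other CR muscles. The call was lost with the methods' t-test (adjusted p = 0.0736). Under resveratrol in muscle it gave -0.53 (SE 0.30, adjusted p = 0.223), which did not pass. In neocortex it differed from the first probe set. It rose under resveratrol, 0.31 (SE 0.10, adjusted p = 0.0246), a call lost without old resveratrol replicate 5 or old control replicates 1 or 2 (adjusted p between 0.0514 and 0.0858), and CR gave -0.07 (SE 0.10, adjusted p = 0.658). Of the remaining Dnmt3a probe sets, 1423065_at fell in neocortex under resveratrol (-0.54, lost without old resveratrol replicates 3 or 5 or old control replicate 5 (adjusted p between 0.0576 and 0.0824)), 1423064_at passed nowhere, and 1423066_at was tested in neocortex alone and did not pass. In muscle 1423065_at had the opposite sign without passing, with 0.84 (adjusted p = 0.153) under CR and 0.30 (adjusted p = 0.669) under resveratrol. Dnmt1, which copies methylation after replication, rose in muscle under resveratrol (0.63 (SE 0.21, adjusted p = 0.035)), a call lost without old resveratrol replicates 1, 2, 4 or 5 or old control replicates 2, 4 or 5 (adjusted p between 0.0523 and 0.0877). Another Dnmt1 probe set, 1422946_a_at, gave -0.22 (adjusted p = 0.59) in that comparison. No other change of a DNA methyltransferase against controls passed the test.

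Kmt5a, which places a single methyl group on the tail of histone H4, was the other member whose probe set fell under both diets in every tissue. In heart 1460687_at measured 1798, 1860.0, 1632, 2178 and 1487 in old CR, 2110.3, 2054, 2575, 2060.3 and 2618 in old resveratrol, 3606, 2755, 2773, 3176 and 3463 in old control and 2177, 2115, 2054, 2388 and 3079 in young control mice. Neither diet group overlapped the old controls, and 2 old control hearts lay within the young control range. The differences were -0.82 (SE 0.12, adjusted p = 3.22e-05) under CR, -0.47 (SE 0.12, adjusted p = 0.0109) under resveratrol and 0.42 (SE 0.12, adjusted p = 0.0252) with age, of which the last was lost without old control replicates 1, 4 or 5 or young control replicates 2 or 3 (adjusted p between 0.0508 and 0.0727). The methods' t-test ended the age call too (adjusted p = 0.113).

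In muscle Kmt5a had 1718, 1142, 1031, 1113 and 1207 in old CR and 1706, 1358, 1408, 1465 and 1411 in old resveratrol, against 2223, 1939.7, 2352, 2264 and 2587 in old controls, again without overlap. The falls were -0.89 (SE 0.17, adjusted p = 0.000496) and -0.63 (SE 0.17, adjusted p = 0.011), in that order. In neocortex it had 377, 332, 393, 436 and 363 in old CR, 336, 469, 477, 539.5 and 429.8 in old resveratrol and 566, 599, 545, 533 and 599 in old controls. CR arrays were all below the controls, whereas resveratrol replicate 4 reached their range. The differences were -0.58 (SE 0.12, adjusted p = 0.00109) for CR and -0.35 (SE 0.12, adjusted p = 0.0389) for resveratrol, the second lost without old resveratrol replicates 1 or 5 or old control replicates 1, 2, 3 or 5 (adjusted p between 0.0515 and 0.131). The other Kmt5a probe set that changed, 1426406_at, fell in heart under CR (-0.91 (SE 0.16, adjusted p = 0.000182)) and was not called under either diet in muscle (-0.11 and 0.00) or neocortex (0.20 and 0.40).

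**Figure D2:**
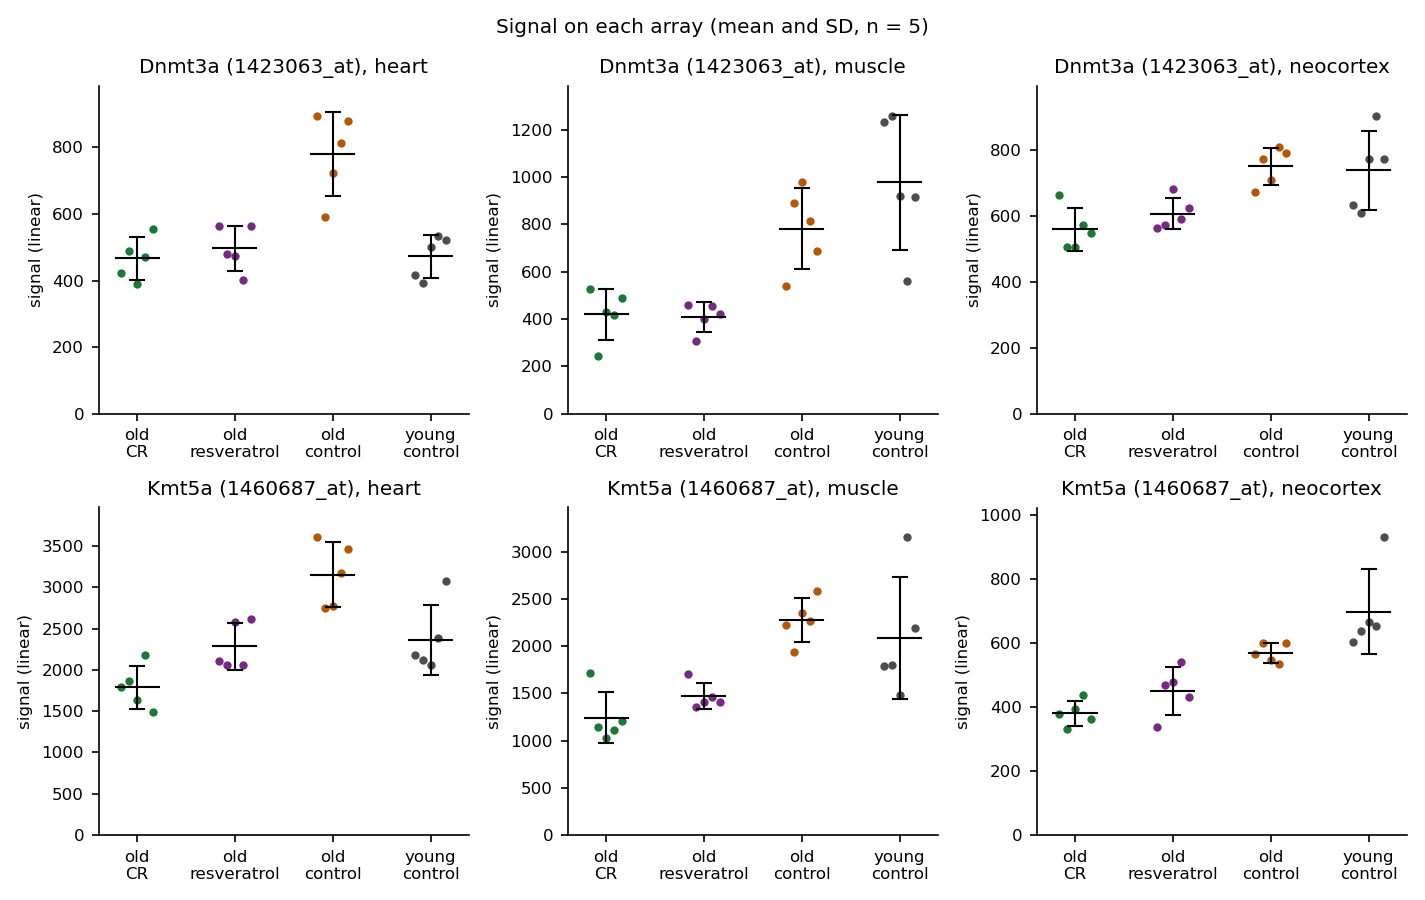
Linear signal of Dnmt3a (1423063_at) and Kmt5a (1460687_at) on each array of the 4 groups, 1 panel per tissue, with the mean and SD of 5 arrays. Old control hearts lie between 589.8 and 895 for Dnmt3a, above the other 3 groups, and the muscles of both diet groups lie below all old control muscles for both genes.

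Because 1 probe set of each of these genes fell under both diets in all tissues, the stretches at their annotated starts are shown (RefSeq on GRCm38.p6, plus strand, 250 bases before and 50 after the start). Capitals mark GC boxes (GGGCGG or CCGCCC, read by the Sp1 family), CCAAT boxes (CCAAT or ATTGG, read by NF-Y) and the E-box CACGTG. The first 2 sequences are alternative starts of Dnmt3a at chr12:3806730-3807029 and chr12:3891494-3891793, and the next 2 are starts of Kmt5a at chr5:124439680-124439979 and chr5:124445249-124445548.
Dnmt3a start 1: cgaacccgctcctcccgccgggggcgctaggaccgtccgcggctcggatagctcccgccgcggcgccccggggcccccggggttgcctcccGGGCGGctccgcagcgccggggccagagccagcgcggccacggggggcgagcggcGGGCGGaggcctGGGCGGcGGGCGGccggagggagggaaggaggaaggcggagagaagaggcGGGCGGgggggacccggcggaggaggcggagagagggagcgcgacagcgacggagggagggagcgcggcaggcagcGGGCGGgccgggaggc
Dnmt3a start 3: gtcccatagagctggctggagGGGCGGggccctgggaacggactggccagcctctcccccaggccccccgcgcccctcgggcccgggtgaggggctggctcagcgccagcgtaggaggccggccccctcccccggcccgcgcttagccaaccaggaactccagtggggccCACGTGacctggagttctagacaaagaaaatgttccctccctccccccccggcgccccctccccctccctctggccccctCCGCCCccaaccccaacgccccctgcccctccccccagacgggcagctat
Kmt5a start 1: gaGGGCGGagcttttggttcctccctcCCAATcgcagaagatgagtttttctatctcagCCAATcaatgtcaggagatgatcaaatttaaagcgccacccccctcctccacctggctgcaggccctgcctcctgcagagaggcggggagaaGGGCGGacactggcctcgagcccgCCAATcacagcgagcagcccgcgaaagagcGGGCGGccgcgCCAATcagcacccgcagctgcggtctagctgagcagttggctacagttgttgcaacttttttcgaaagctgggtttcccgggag
Kmt5a start 2: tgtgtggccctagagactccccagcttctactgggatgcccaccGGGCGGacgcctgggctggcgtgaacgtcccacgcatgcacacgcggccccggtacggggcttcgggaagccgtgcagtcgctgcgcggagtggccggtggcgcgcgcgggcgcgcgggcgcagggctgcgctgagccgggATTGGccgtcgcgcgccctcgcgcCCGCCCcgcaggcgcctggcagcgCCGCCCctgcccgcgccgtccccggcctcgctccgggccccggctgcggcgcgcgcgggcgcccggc
The Dnmt3a starts held 6 and 2 GC boxes, no CCAAT box and, in the second shown, 1 E-box. The Kmt5a starts held 3 GC boxes each, with 4 CCAAT boxes in the first and 1 in the second. Among 32851 such windows, 35.7% held a GC box, 37.4% a CCAAT box and 7.15% the E-box, on either strand. The ETS site CCGGAAG (8.86% of windows) and the cAMP response element TGACGTCA (1.79%) were in none of the 4. GC content was 82.3% and 74.0% at Dnmt3a and 59.7% and 80.3% at Kmt5a, with a median of 52.7% over all windows. The arrays do not say which start was used.

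Among the TET dioxygenases, the direction depended on the tissue and on the probe set. Tet2 (1455300_at) rose in muscle, where it had 809, 652, 656, 680.0 and 546 in old CR and 870.5, 703, 711, 535 and 488 in old resveratrol, against 218, 365, 381, 393 and 312 in old controls. It fell in neocortex, with 373, 363, 288, 414 and 399 in old CR and 445, 299.5, 281, 412 and 403 in old resveratrol, against 486, 541, 515, 623 and 518 in old controls. In both tissues each diet group lay wholly on 1 side of the controls. The log2 differences were 1.02 (SE 0.20, adjusted p = 0.000599) and 0.99 (SE 0.20, adjusted p = 0.00129) in muscle for CR and resveratrol, and -0.55 (SE 0.16, adjusted p = 0.0119) and -0.56 (SE 0.16, adjusted p = 0.0113) in neocortex. A second Tet2 probe set, 1438781_at, rose in neocortex under CR (0.82, adjusted p = 0.00424) and under resveratrol (0.79, adjusted p = 0.00612), opposite to the first, although both calls were lost with the methods' t-test (adjusted p = 0.0506 and 0.0678). Tet2 as a gene has no single direction in neocortex. Tet1 (1455425_at) fell in muscle under resveratrol, with 73.8, 63.5, 37.4, 51.2 and 47.7 in old resveratrol and 96, 163, 150.2, 116 and 123 in old controls (-1.26 (SE 0.26, adjusted p = 0.00175)), and 4 of the resveratrol signals were under the 69.3 that marks the 40th percentile in muscle. No Tet3 probe set passed the test against controls.

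Acetyltransferases in heart had 3 rises and 6 falls of 21 tested under CR and 1 rise and 6 falls under resveratrol. Over all probe sets in heart 10.2% rose and 10.2% fell under CR, and 7.51% rose and 7.64% fell under resveratrol. Ep300, a coactivator that acetylates histones at enhancers, had 1035, 705, 965, 1016 and 1283 in old CR and 888, 990.2, 1191, 973 and 931 in old resveratrol, against 1506, 1283, 1392, 1926 and 1216 in old control hearts. CR replicate 5 was inside the control range and the other 9 diet hearts were below it. The differences were -0.56 (SE 0.14, adjusted p = 0.00701) and -0.55 (SE 0.14, adjusted p = 0.0102). Its paralogue Crebbp fell in neocortex (1435224_at, 966, 901, 955, 1088 and 938 in old CR, 844, 1070.5, 1087, 1162 and 1130.5 in old resveratrol, 1391, 1355, 1271, 1333 and 1341 in old controls) without overlap, with differences of -0.47 (SE 0.09, adjusted p = 0.000409) and -0.35 (SE 0.09, adjusted p = 0.00568). Kat6a (1436315_at) fell in heart under CR (-0.55) and resveratrol (-0.69), and in neocortex under CR (-0.56). Kat2a, the acetyltransferase of the SAGA complex, fell in neocortex under both diets at 1422972_s_at (-0.58 (SE 0.09, adjusted p = 5.82e-05) for CR, -0.70 (SE 0.09, adjusted p = 8.65e-06) for resveratrol). Other Kat2a probe sets gave -0.35 and 0.11 (1422971_at) and -0.34 and -0.25 (1426783_at) in neocortex, with CR first. Other Crebbp probe sets gave -0.285 and 0.11 (1434633_at) and -0.22 and -0.32 (1436983_at) there.

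Kat2b, the close relative of Kat2a, moved in opposite directions in heart and muscle at 1 probe set. At 1450821_at the heart had 607, 786, 649.9, 733 and 758 in old CR, 568, 362, 482, 711 and 759.6 in old resveratrol, 242, 375, 346, 237 and 279.9 in old controls and 351, 534, 583, 749 and 396 in young controls. The muscle had 421, 243, 360.2, 451 and 299 in old CR, 358, 286, 437, 421 and 379.9 in old resveratrol and 499.8, 746, 836, 798 and 714 in old controls. CR hearts were all above and the muscles of both diets all below their old controls. The differences in heart were 1.27 (SE 0.21, adjusted p = 0.000106) for CR, 0.94 (SE 0.21, adjusted p = 0.00329) for resveratrol and -0.79 (SE 0.21, adjusted p = 0.0152) for age, the last lost without young control replicate 4 (adjusted p = 0.0521). Resveratrol replicate 2 lay within the control range in heart, and the age call there was also lost with the methods' t-test (adjusted p = 0.101). Those in muscle were -1.03 (SE 0.18, adjusted p = 0.000286) and -0.93 (SE 0.18, adjusted p = 0.00123). The tissues differed under CR (adjusted p = 2.57e-08), resveratrol (adjusted p = 2.36e-06) and age (adjusted p = 0.0123). The brightest Kat2b probe set in heart, 1434037_s_at, went the other way there, with -0.34 (SE 0.09, adjusted p = 0.00607) under CR, -0.32 (SE 0.09, adjusted p = 0.0117) under resveratrol and 0.33 (SE 0.09, adjusted p = 0.0118) with age, and it rose in neocortex by 0.26 and 0.30. Another, 1457809_at, rose in muscle under CR (0.69 (SE 0.21, adjusted p = 0.0151)) without overlap, opposite to 1450821_at. Kat2b thus had no single direction in heart or, under CR, in muscle. Kat14 (1441402_at), a subunit of the ATAC complex, rose in muscle, with 163, 106, 169, 146 and 186 in old CR and 123, 112, 148, 126 and 165 in old resveratrol, against 20.5, 101, 47.5, 54.5 and 65.3 in old controls, of which 4 were under the 69.3 that marks the 40th percentile in muscle. Other Kat14 probe sets were not called there and had the opposite sign. For CR and resveratrol they gave -0.16 and -0.25 at 1452775_at, and -0.38 and -0.17 at 1459476_s_at.

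Among the arginine methyltransferases, Carm1 fell under both diets in heart and neocortex, and Prmt5 fell under both in muscle. Carm1 (1419743_s_at), a coactivator of nuclear receptors, had 1785, 1494, 1482, 1691 and 1353 in old CR, 1300.4, 1788, 1398, 1211 and 1719 in old resveratrol, 3171, 2699, 2414, 2656 and 2823 in old control and 1834, 2031, 2183, 2028 and 2394 in young control hearts. In neocortex it had 1063, 974, 860.2, 895 and 845 in old CR and 884, 804, 931, 692 and 691 in old resveratrol, against 1685, 1601, 1419, 1566 and 2034 in old controls. Diet and control groups did not overlap in either tissue. The falls were -0.82 (SE 0.12, adjusted p = 1.53e-05) and -0.90 (SE 0.12, adjusted p = 8.58e-06) in heart, and -0.84 (SE 0.10, adjusted p = 3.77e-06) and -1.05 (SE 0.10, adjusted p = 2.51e-07) in neocortex, with CR given first. It rose with age in heart, 0.39 (SE 0.12, adjusted p = 0.027), which was lost without old control replicates 1 or 5 or young control replicates 1, 2 or 4 (adjusted p between 0.0507 and 0.0807).

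Prmt5 (1427439_s_at), the main enzyme of symmetric arginine methylation, fell with age in heart, where old controls had 1455, 1164, 1213, 738 and 1115 and young controls 2009.8, 2007, 1776, 2022 and 1865. In muscle it had 1086, 639, 939, 939 and 991 in old CR and 997, 879.8, 1229.7, 1120.2 and 998 in old resveratrol, against 1319, 2122, 2178, 2348 and 1863 in old controls. The groups of each of these comparisons were separate. The differences were -0.80 (SE 0.13, adjusted p = 0.000192) for age in heart, and -1.09 (SE 0.16, adjusted p = 4.98e-05) and -0.89 (SE 0.16, adjusted p = 0.000591) for the diets in muscle. CR moved it the other way in heart (0.47 (SE 0.13, adjusted p = 0.0124)), where old CR hearts had 1581, 1659, 1567, 1605 and 1301 with 1 of them in the control range. The tissues differed under CR (adjusted p = 1.99e-09). Prmt3 had its own split in muscle, with 1426749_at at 0.32 and 1431768_a_at at -2.16 under CR, both past the threshold, although the first was lost without old CR replicates 2 or 4 or old control replicates 1, 3, 4 or 5 (adjusted p between 0.0557 and 0.0904) and the second had 5 old CR arrays under the 40th percentile and was lost with the methods' t-test (adjusted p = 0.0608). Prmt8, an enzyme of neurons, fell in neocortex under CR (-0.39 (SE 0.09, adjusted p = 0.00192)) and resveratrol (-0.29 (SE 0.09, adjusted p = 0.017)), the second call lost without old resveratrol replicate 5 (adjusted p = 0.0548).

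Histone deacetylases changed by class and tissue. Of the 4 class I enzymes, the general nuclear deacetylases, Hdac2 alone had calls against old controls, and both of its tested probe sets fell in muscle. At 1449080_at the muscles had 527, 559, 452, 425 and 443 in old CR and 461, 427, 459.8, 591 and 434 in old resveratrol, against 1061, 1069.5, 868, 1171 and 831 in old controls. At 1445684_s_at they had 1522, 1818, 1194, 927 and 1025 in old CR and 1483, 1114, 1831, 1406 and 1249 in old resveratrol, against 2972, 3241, 2641, 3161 and 3018 in old controls. The diet groups were wholly below the controls on both. The falls were -1.05 (SE 0.13, adjusted p = 8.99e-06) and -1.07 (SE 0.13, adjusted p = 1.38e-05) at the first, and -1.25 (SE 0.16, adjusted p = 1.08e-05) and -1.10 (SE 0.16, adjusted p = 7.92e-05) at the second, for CR and resveratrol. In neocortex 1445684_s_at gave 0.09 and 0.16, neither past the threshold, and its changes differed between the tissues (adjusted p = 1.49e-06 for CR, adjusted p = 4.45e-07 for resveratrol).

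The class IIa deacetylases, which shuttle between nucleus and cytoplasm, fell in all but 1 of their calls under the diets. Hdac9 (1434572_at) had 472, 401, 613, 515 and 482 in old CR, 549, 698, 626, 387 and 479.6 in old resveratrol, 795, 732, 779, 824 and 695 in old control and 466, 464, 576, 499 and 374 in young control hearts. In muscle it had 178, 226, 143, 261 and 119 in old CR and 213, 472, 305, 265 and 282 in old resveratrol, against 795, 679.7, 319, 453 and 427 in old controls. CR groups lay below the controls in both tissues, and the resveratrol groups overlapped them. With age in heart the difference was 0.70 (SE 0.16, adjusted p = 0.00545). Under CR it was -0.63 (SE 0.16, adjusted p = 0.00651) in heart and -1.51 (SE 0.26, adjusted p = 0.000216) in muscle. Under resveratrol it was -0.51 (SE 0.16, adjusted p = 0.0341) in heart and -0.77 (SE 0.26, adjusted p = 0.0386) in muscle, calls that were lost without old resveratrol replicates 1, 4 or 5 or old control replicates 1, 2, 3 or 4 (adjusted p between 0.0508 and 0.125) in heart and old resveratrol replicates 1, 3, 4 or 5 or old control replicates 1, 2 or 4 (adjusted p between 0.0516 and 0.104) in muscle. The exception was the neocortex, where resveratrol gave 0.24 (SE 0.09, adjusted p = 0.0499), lost without old CR replicates 2, 3, 4 or 5 or old resveratrol replicates 1, 2, 3, 4 or 5 or old control replicates 1, 2, 3 or 4 or young control replicates 1, 2, 3 or 5 (adjusted p between 0.0503 and 0.131).

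Hdac7 (1420812_at), an enzyme of endothelial and immune cells, fell in neocortex, with 162, 225, 168, 225 and 186 in old CR and 218, 183, 183, 213 and 197 in old resveratrol, against 331, 457, 296, 479 and 635 in old controls. A second probe set, 1420813_at, had 333, 448, 444, 361 and 347, 392, 385, 397, 375 and 356 and 653, 622, 554, 713 and 790.4 in these groups, in the same order. All diet arrays were below all old controls on both. The changes were -1.15 (SE 0.16, adjusted p = 1.99e-05) and -1.09 (SE 0.16, adjusted p = 3.62e-05) at the first, and -0.79 (SE 0.12, adjusted p = 6.19e-05) and -0.80 (SE 0.12, adjusted p = 6.19e-05) at the second. Summed endothelial markers overlapped between these groups in neocortex, with 599 to 859.5 in old CR and 670 to 1418 in old resveratrol, against 634 to 823 in old controls, and 1 of 5 fell under CR. Macrophage and microglia markers summed to 7670 to 9389 in old CR and 10200 to 15160 in old resveratrol, against 8891 to 10620 in old controls, where 2 of 6 fell under CR and 4 of 6 rose under resveratrol. Hdac5 (1415743_at) fell in neocortex under CR (-0.68 (SE 0.11, adjusted p = 6.75e-05)) and resveratrol (-0.41 (SE 0.11, adjusted p = 0.00774)), and in heart under resveratrol (-0.68 (SE 0.18, adjusted p = 0.0124)) and CR (-0.57, lost without old CR replicates 2 or 3 or old control replicates 2, 4 or 5 (adjusted p between 0.0501 and 0.0974)).

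Hdac11, the only class IV deacetylase, was brightest in neocortex and fell there. At 1451229_at the signals were 2358, 2016, 2134, 2086 and 2105 in old CR and 2169.8, 2698, 2528, 1928 and 2373 in old resveratrol, against 3193, 3783, 3026, 3674 and 3391 in old controls. At 1454803_a_at they were 1156, 1073, 1184, 1555 and 835 in old CR and 1518, 1456, 1279.8, 888 and 1186 in old resveratrol, against 2119, 2063, 2162, 2159 and 2074 in old controls. No diet array reached the controls on either. The falls were -0.67 (SE 0.08, adjusted p = 3.73e-06) and -0.55 (SE 0.08, adjusted p = 3.76e-05), and -0.89 (SE 0.13, adjusted p = 3.41e-05) and -0.77 (SE 0.13, adjusted p = 0.000196). In muscle 1454803_a_at rose instead, with 647, 585, 536, 753 and 516 in old CR and 735, 632, 534, 574 and 630.5 in old resveratrol, against 346, 297, 158, 281 and 263 in old controls, also without overlap. The rises were 1.21 (SE 0.26, adjusted p = 0.00158) and 1.25 (SE 0.26, adjusted p = 0.00194), and the tissues differed (adjusted p = 3.14e-05 for CR, adjusted p = 0.000102 for resveratrol). The other probe set, 1451229_at, was not called in muscle, with -0.04 (adjusted p = 0.912) under CR and 0.24 (adjusted p = 0.514) under resveratrol. In heart 1451229_at rose with age (0.50 (SE 0.14, adjusted p = 0.0174)) and fell under CR (-0.42) and resveratrol (-0.43). Those 3 calls were lost without old control replicate 4 or young control replicate 2 (adjusted p between 0.0524 and 0.0568) for age, old CR replicates 1, 3 or 5 or old control replicates 3, 4 or 5 (adjusted p between 0.053 and 0.095) for CR and old resveratrol replicates 1, 2 or 3 or old control replicates 3, 4 or 5 (adjusted p between 0.055 and 0.101) for resveratrol.

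Lysine demethylases held the largest changes. Kdm6b (1456610_at), which removes a repressive methyl mark of histone H3 that the Polycomb enzymes place, had 971, 104, 711, 1176 and 1135 in old CR and 668, 1099.7, 1141, 1441 and 1094 in old resveratrol muscles, against 36.2, 43.8, 184, 178 and 32.6 in old controls and 291, 278, 377, 28.5 and 300.5 in young controls. CR replicate 2 was within the control range, and 3 old control signals were under the 69.3 of the 40th percentile, so the size of the log2 change rests on dim values. The changes were 3.16 (SE 0.69, adjusted p = 0.00179) and 3.92 (SE 0.69, adjusted p = 0.000492) for CR and resveratrol. Other Kdm6b probe sets were not called in muscle. For CR and resveratrol, 1447612_x_at gave 0.06 (adjusted p = 0.95) and 1.15 (adjusted p = 0.183), and 1442643_at gave 0.59 (adjusted p = 0.0542) and 0.56 (adjusted p = 0.0876). In neocortex 1456610_at fell, with 205, 235, 158, 301 and 307 in old CR and 246, 363, 244, 207 and 251 in old resveratrol, against 375, 608, 422, 359.7 and 469.7 in old controls. The differences there were -0.90 (SE 0.18, adjusted p = 0.000745) and -0.77 (SE 0.18, adjusted p = 0.00323), with 1 resveratrol array in the control range. The tissues differed under CR (adjusted p = 6.36e-06) and resveratrol (adjusted p = 1.27e-07). In heart CR gave 0.59 (SE 0.20, adjusted p = 0.0348), lost without old CR replicates 1, 2 or 4 or old control replicates 2, 4 or 5 (adjusted p between 0.0608 and 0.113).

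Kdm5a, which demethylates histone H3 at active promoters, rose in muscle at 1444842_at, where old controls were dim, with 202, 232, 152, 365 and 319 in old CR and 302, 153, 217, 184 and 244 in old resveratrol, against 61.5, 27.7, 85.2, 67.5 and 20.6 in old controls. The groups did not overlap (2.40 (SE 0.41, adjusted p = 0.00022) for CR, 2.22 (SE 0.41, adjusted p = 0.000755) for resveratrol), but another Kdm5a probe set, 1437105_at, fell under CR (-0.60 (SE 0.16, adjusted p = 0.00629)). Kdm6a (1427235_at), the X-linked relative of Kdm6b, fell in muscle, with 401, 303, 310.1, 236 and 252 in old CR and 363, 271, 338, 312 and 263 in old resveratrol, against 538, 653, 433, 748 and 554 in old controls (-0.96 (SE 0.18, adjusted p = 0.000437) and -0.91 (SE 0.18, adjusted p = 0.0012)). Kdm2a (1455942_at), which binds unmethylated CpG islands, fell in neocortex, where it had 204, 169, 200.3, 286 and 214 in old CR and 176, 185, 232, 258 and 216 in old resveratrol, against 456, 473, 415, 397 and 434 in old controls. Controls were above every diet array. The changes were -1.04 (SE 0.13, adjusted p = 6.21e-06) and -1.04 (SE 0.13, adjusted p = 6.7e-06) in neocortex. In heart they were -0.64 for CR, lost without old CR replicate 3 or old control replicate 1 (adjusted p between 0.0528 and 0.055), and -0.67 for resveratrol, lost without old resveratrol replicate 4 or old control replicate 1 (adjusted p between 0.0566 and 0.0647). Other Kdm2a probe sets differed, with CR given first. In neocortex 1435329_at gave -0.16 and -0.07, and 1438890_at gave -0.52 and 0.22. In heart they gave 0.18 and -0.06, and 0.91 and -0.34. Kdm4b (1424044_at) fell in heart under resveratrol, with 45.4, 56.5, 105, 28.1 and 118 in old resveratrol against 301, 231, 219, 293 and 286 in old controls (-2.10 (SE 0.47, adjusted p = 0.00299)), and 3 of the resveratrol signals were under the 60.4 of the 40th percentile in heart. Kdm5c (1426497_at), a relative of Kdm5a, fell in neocortex, at -1.18 (SE 0.39, adjusted p = 0.027) and -1.10 (SE 0.39, adjusted p = 0.041), but was lost under CR without old CR replicates 3, 4 or 5 or old control replicate 3 (adjusted p between 0.058 and 0.0855) and under resveratrol without old resveratrol replicates 2 or 3 or old control replicates 1, 2, 3 or 4 (adjusted p between 0.0544 and 0.141). Other Kdm5c probe sets gave 0.45 and 0.25 (1444157_a_at), -0.26 and -0.13 (1444158_at) and -0.43 and 0.01 (1435348_at) in neocortex. In muscle Kdm5c rose under both diets at 1444157_a_at (0.83 and 1.14), 1444158_at (0.82 and 1.02) and 1457930_at (1.11 and 1.03). There 1426497_at (0.02 and 0.39) and 1435348_at (-0.16 and 0.06) were not called. Kdm2b (1459861_s_at) rose in neocortex under resveratrol (0.65 (SE 0.11, adjusted p = 0.000194)), where another Kdm2b probe set, 1452198_at, gave 0.08. With age in heart 0 demethylases of 39 tested passed, where 12% of all probe sets did.

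Among lysine methyltransferases, Ehmt2, which methylates histone H3 in silent chromatin, and Kmt2d, which marks enhancers, fell under both diets. Ehmt2 (1460692_at) had 1389, 1400.0, 1497, 1599 and 1638 in old CR and 1486, 1739.9, 1964, 1325 and 1502 in old resveratrol, against 2723, 2599.6, 2261, 2505 and 2827 in old control neocortex. Kmt2d (1435550_at) had 617, 564, 573, 575 and 428 in old CR and 543, 526, 768, 793 and 761 in old resveratrol, against 1110.2, 1059, 882, 938 and 1369.5 in old control neocortex. Diet and control arrays were separate for both genes. The falls of Ehmt2 were -0.78 (SE 0.09, adjusted p = 2.55e-06) and -0.70 (SE 0.09, adjusted p = 1e-05) there, and -0.49 (SE 0.14, adjusted p = 0.0111) and -0.73 (SE 0.14, adjusted p = 0.000467) in heart. A second Ehmt2 probe set, 1426888_at, fell in neocortex too (-1.06 and -1.37). Kmt2d changed by -0.95 (SE 0.14, adjusted p = 2.98e-05) and -0.67 (SE 0.14, adjusted p = 0.0012) in neocortex, and by -1.10 (SE 0.18, adjusted p = 9.3e-05) and -1.11 (SE 0.18, adjusted p = 0.000141) in heart, where it had risen with age (0.65 (SE 0.18, adjusted p = 0.0199), lost without old control replicates 4 or 5 or young control replicate 3 (adjusted p between 0.0551 and 0.0787)).

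Kmt5c (1424059_at), which adds the final methyl groups after Kmt5a, had 384, 308, 413, 498 and 359 in old CR, 398, 275, 382, 290.4 and 382 in old resveratrol, 153, 138, 186, 215 and 196 in old control and 499, 526, 493, 349.7 and 322 in young control muscles. Old controls were below every other muscle. Age gave -1.29 (SE 0.19, adjusted p = 0.00176), a call lost with the methods' t-test (adjusted p = 0.0924), CR 1.15 (SE 0.19, adjusted p = 0.000132) and resveratrol 0.96 (SE 0.19, adjusted p = 0.00107). In neocortex the diets moved it down, with -0.68 (SE 0.13, adjusted p = 0.000383) and -0.63 (SE 0.13, adjusted p = 0.000834), and the tissues differed (adjusted p = 3.44e-06 for CR, adjusted p = 6.21e-05 for resveratrol). Ezh1 (1418290_a_at), a Polycomb enzyme of resting cells, was the other member that fell with age in muscle, with 144, 154, 94.4, 179.6 and 71.1 in old controls and 474, 407, 579.7, 182 and 239.6 in young controls (-1.50 (SE 0.30, adjusted p = 0.0208)). This call was lost without old control replicate 5 or young control replicates 1, 2 or 3 (adjusted p between 0.0638 and 0.0826). The methods' t-test ended it too (adjusted p = 0.207). Ezh1 also fell with age in heart, with 268, 230.0, 253, 206 and 245 in old controls against 375, 439, 567, 495 and 331 in young controls, and rose under CR to 406, 654, 449, 524 and 490.0, both without overlap. The differences were -0.85 (SE 0.22, adjusted p = 0.0129) for age, lost with quantile normalization (adjusted p = 0.0515), and 1.06 (SE 0.22, adjusted p = 0.00129) for CR, and resveratrol gave 0.61 (SE 0.22, adjusted p = 0.0685). Another Ezh1 probe set, 1449023_a_at, did not share these changes. It gave 0.41 with age and -0.02 under CR in heart, and -0.005 with age in muscle (adjusted p = 0.996).

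Setd7 (1435437_at), which adds 1 methyl group to histone H3 and to other proteins, fell under CR in every tissue. In muscle it had 4620.1, 1594, 3302, 4610.5 and 4326 in old CR, 7166, 6919, 6697, 6192 and 5529 in old resveratrol and 8068, 7406, 8888, 8288 and 10224 in old controls. In neocortex it had 1667, 2074, 2333, 2211 and 2094 in old CR, 2899, 2655, 3128, 3423 and 3025 in old resveratrol and 2738, 2596, 2628, 2758 and 2588 in old controls. CR arrays were below both other groups in each tissue, and resveratrol muscles were below the controls too. Against old controls the differences for CR were -0.58 (SE 0.11, adjusted p = 0.000464) in heart, -1.31 (SE 0.21, adjusted p = 0.000106) in muscle and -0.37 (SE 0.10, adjusted p = 0.009) in neocortex, and resveratrol passed in none (-0.31 (SE 0.11, adjusted p = 0.0619), -0.40 (SE 0.21, adjusted p = 0.186) and 0.18 (SE 0.10, adjusted p = 0.207)). The direct difference, old CR minus old resveratrol, was -0.55 (SE 0.10, adjusted p = 0.003) in neocortex and -0.91 (SE 0.21, adjusted p = 0.0611) in muscle, of which the first passed. A dimmer Setd7 probe set, 1423003_at, rose in heart under CR (1.63 (SE 0.58, adjusted p = 0.0483)), a call lost without old CR replicates 1, 2, 4 or 5 or old resveratrol replicates 1, 2, 3 or 4 or old control replicates 1 or 5 or young control replicates 2, 4 or 5 (adjusted p between 0.0502 and 0.15).

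Further members of the group included Setd6 (1428798_s_at), which methylates a subunit of NF-kB and fell under CR in heart (-0.94 (SE 0.19, adjusted p = 0.000944)), Setd4 (1460373_a_at), which rose in neocortex (0.62 (SE 0.14, adjusted p = 0.00204) for CR, 0.61 (SE 0.14, adjusted p = 0.00248) for resveratrol), and Kmt2a (1427283_at), which methylates histone H3 at promoters and fell in heart under resveratrol (-0.92 (SE 0.20, adjusted p = 0.00255)). Another Setd4 probe set, 1435405_at, fell in neocortex under resveratrol (-0.92 (SE 0.23, adjusted p = 0.00434)) and gave -0.49 (SE 0.23, adjusted p = 0.115) under CR, so Setd4 had no single direction there. In heart, another Setd6 probe set, 1428797_at, gave -0.05 under CR, and another Kmt2a probe set, 1452377_at, gave -0.21 under resveratrol. Among the deacetylases, Hdac6 (1448928_at), which acts on tubulin, fell in muscle under resveratrol (-1.72 (SE 0.58, adjusted p = 0.0387)), a call lost without old resveratrol replicates 2, 3 or 4 or old control replicates 2, 3, 4 or 5 (adjusted p between 0.0581 and 0.122), and the class I enzyme Hdac1 (1448246_at) did not pass in heart (0.50 (SE 0.23, adjusted p = 0.134) for CR, 0.66 (SE 0.23, adjusted p = 0.0544) for resveratrol).

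The direct comparison of the diets passed for few members elsewhere. In neocortex 13 of 145 passed, 1 higher and 12 lower in old CR than in old resveratrol, against 8.06% of all probe sets (3.65% and 4.41%). They include Setd7, 2 of the 3 tested probe sets of Kdm7a (-0.38 (SE 0.08, adjusted p = 0.00421) and -0.64 (SE 0.14, adjusted p = 0.00739)), Setd1b (1440836_at, -0.61 (SE 0.11, adjusted p = 0.00338)), and Dnmt3a at 1460324_at (-0.37 (SE 0.10, adjusted p = 0.0215)), the last lost without old CR replicate 4 (adjusted p = 0.0512). Ezh1 was the one that was higher in old CR (0.44 (SE 0.13, adjusted p = 0.0404)), a call lost without old CR replicates 1, 2, 3, 4 or 5 or old resveratrol replicates 2, 3, 4 or 5 (adjusted p between 0.0544 and 0.0996). In heart only Hdac2 at 1445684_s_at passed (-0.59 (SE 0.16, adjusted p = 0.0483), background 2.74%, with 1.22% higher and 1.52% lower), a call lost without old CR replicates 2, 3, 4 or 5 or old resveratrol replicates 1, 2, 3 or 4 or old control replicates 1, 2, 3 or 5 or young control replicates 2, 3 or 5 (adjusted p between 0.0525 and 0.145). In muscle 0 of 137 passed (background 0.348%), with 17 at an unadjusted p under 0.05 in limma and 0 by the methods' t-test after adjustment.

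With age, 10 members rose and 7 fell in heart. The rises beside those of Dnmt3a, Kmt5a, Carm1, Hdac9, Hdac11, Kmt2d and Kat2b (1434037_s_at) were of Setd7 (0.44 (SE 0.11, adjusted p = 0.00964)) and Setd1b (0.69 (SE 0.21, adjusted p = 0.0283)), the second lost without old control replicates 2, 4 or 5 or young control replicates 3 or 5 (adjusted p between 0.052 and 0.0806). The falls beside those of Prmt5, Ezh1 and Kat2b (1450821_at) were of Kat5, a DNA damage and transcription acetyltransferase, of Kat2a (1422971_at, -1.88 (SE 0.51, adjusted p = 0.0158), lost with the methods' t-test at an adjusted p of 0.0937), of Kmt2e and of Kmt5b. Kat5 (1433980_at) had 770.5, 767, 685, 522 and 609.7 in old controls, all below the 996, 979.5, 1099.6, 1040.0 and 1004 of young controls (-0.62 (SE 0.13, adjusted p = 0.00237)). The falls of Kmt2e and Kmt5b were lost without old control replicates 4 or 5 or young control replicates 1 or 3 (adjusted p between 0.0528 and 0.0899) and without old control replicates 2, 3, 4 or 5 or young control replicates 1, 2 or 3 (adjusted p between 0.0524 and 0.0931). Old control hearts carried the highest 3' to 5' difference of beta-actin, so age and both diets were read in heart against the arrays that stood apart by it. Leaving out old control replicate 4, the array with the widest difference, and young control replicate 1 left 11 members past the threshold with age. The summed signal of dividing-cell markers was 3609 to 4349 in old control hearts, against 5273 to 33880 in young controls, with 2 of 5 tested markers falling.

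**Figure D3:**
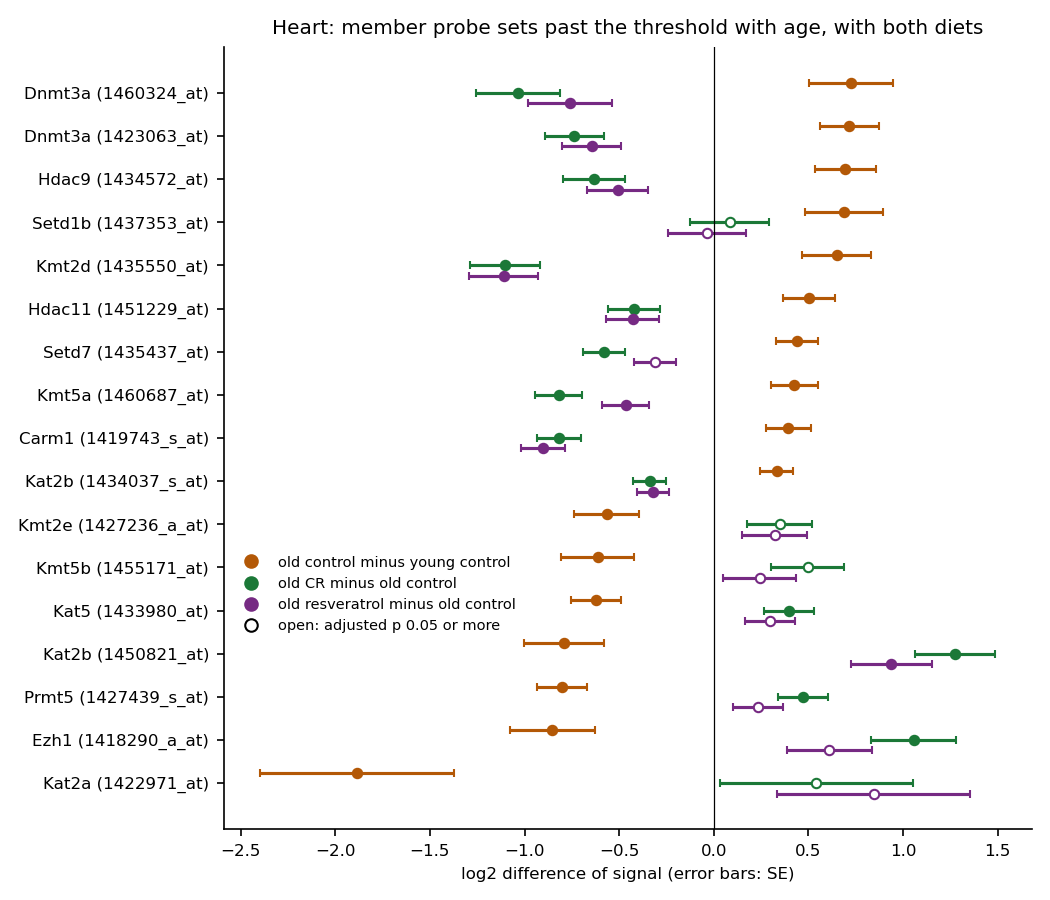
Log2 difference of signal (SE as bars) in heart for the 17 member probe sets that passed the threshold for old control minus young control, with their values for old CR minus old control and old resveratrol minus old control beside them. Open symbols did not pass. All 3 differences use the same 5 old control hearts, so a high or low old control moves age and diet values in opposite directions.

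Several members changed in opposite directions in different tissues. Over the 125 members tested in all 3, the interaction F test passed for 39 under CR (background 35.9%), 43 under resveratrol (27.5%) and 8 with age (8.76%). A test that gives each tissue its own variance, added after the data were seen, passed 45, 43 and 13 of them, with 36, 37 and 7 in both. Over all probe sets it passed 39.98%, 29.7% and 11.03%, in the same order. Each between-tissue difference given above with an adjusted p under 0.05 passed that test too. In simulated data both tests made more false calls than the threshold allows, and the test with 1 variance made more of them, so these counts and adjusted p-values are less strict than they read. The tissues were treated as taken from different mice, since the labels do not pair them. Among members called in 2 tissues under CR, 4 of 11 went opposite ways in heart and muscle (Prmt3, Prmt5, Kat5 and Kat2b), 2 of 17 in heart and neocortex (Kat2b, Kdm6b) and 5 of 11 in muscle and neocortex (Kmt5c, Setd5, Hdac11, Tet2 and Kdm6b). Over all probe sets called in both tissues under CR, 41%, 17.3% and 36.2% went opposite ways in these pairs. Under resveratrol the counts were 1 of 4, 3 of 15 and 6 of 11, and the shares of all probe sets were 53.4%, 20.9% and 23.5%. Setd5 (1437206_at), for example, had 585, 382, 563, 635 and 638 in old CR and 513, 645, 672, 561 and 698 in old resveratrol, against 337, 368, 429, 388 and 446 in old control muscles. In neocortex it had 768, 834, 699.9, 814 and 785 in old CR and 761, 733, 722, 720.3 and 681 in old resveratrol, against 1158, 1236, 978, 1442 and 1467 in old controls. Its changes were 0.49 and 0.65 in muscle, and -0.67 and -0.78 in neocortex (adjusted p = 2.26e-05 between tissues for CR), and CR replicate 2 was the only diet muscle in the control range.

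**Figure D4:**
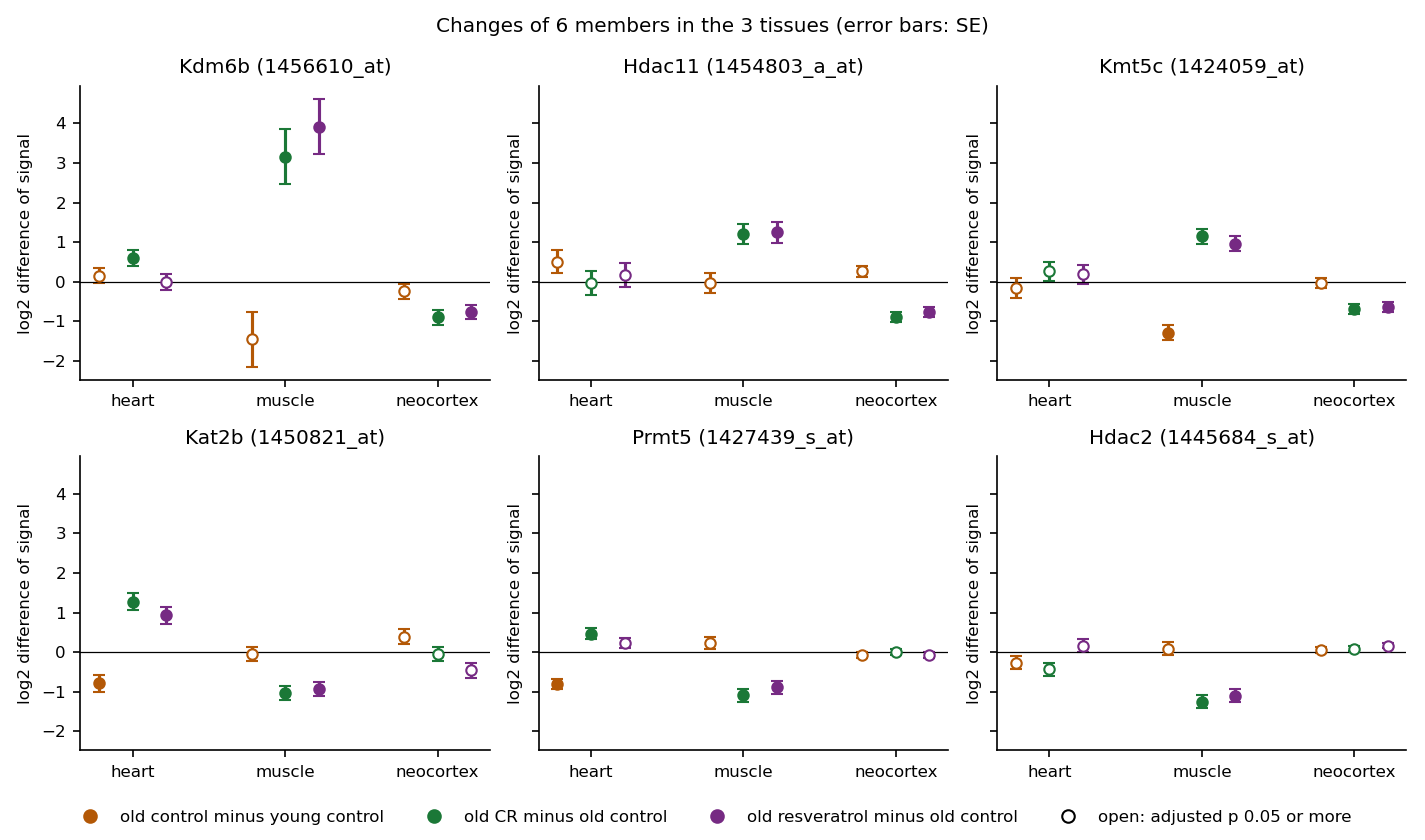
Log2 differences of signal (SE as bars) for 6 member probe sets in heart, muscle and neocortex, for age and for both diets, with open symbols where the adjusted p was 0.05 or more. The probe sets shown for Kdm6b, Hdac11 and Kmt5c rose in muscle and fell in neocortex under both diets, and that for Kat2b rose in heart and fell in muscle.

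Levels in young controls also differed between tissues for many members, at shares below those of all probe sets. Between heart and muscle 67 of 155 differed (background 49.5%), between heart and neocortex 72 of 159 (63.8%) and between muscle and neocortex 80 of 154 (67.5%). Hdac11 (1451229_at) had 672 ± 83 in heart, 178 ± 37.7 in muscle and 3308 ± 129 in neocortex (mean ± SD, n = 5), and the tissues differed (heart minus neocortex -2.31, heart minus muscle 1.94). Setd7 (1435437_at) was highest in muscle, with 1453 ± 217 in heart, 9098 ± 1215 in muscle and 2871 ± 455 in neocortex (muscle minus neocortex 1.67, heart minus neocortex -0.98). Kat2b (1434037_s_at) had 3667 ± 256 in heart, 5185 ± 594 in muscle and 1047 ± 79.8 in neocortex (heart minus muscle -0.50, heart minus neocortex 1.81). Prmt8, singled out after its values were seen, averaged 2447 ± 314 in neocortex and was not tested in the other tissues under the diets, where young controls had 3.57, 126, 16, 37.4 and 20.6 in heart and 6.05, 5.23, 7.75, 23.4 and 2.92 in muscle. All but 1 of these signals were under the 40th percentile of their tissue, so no fold is given.

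**Figure D5:**
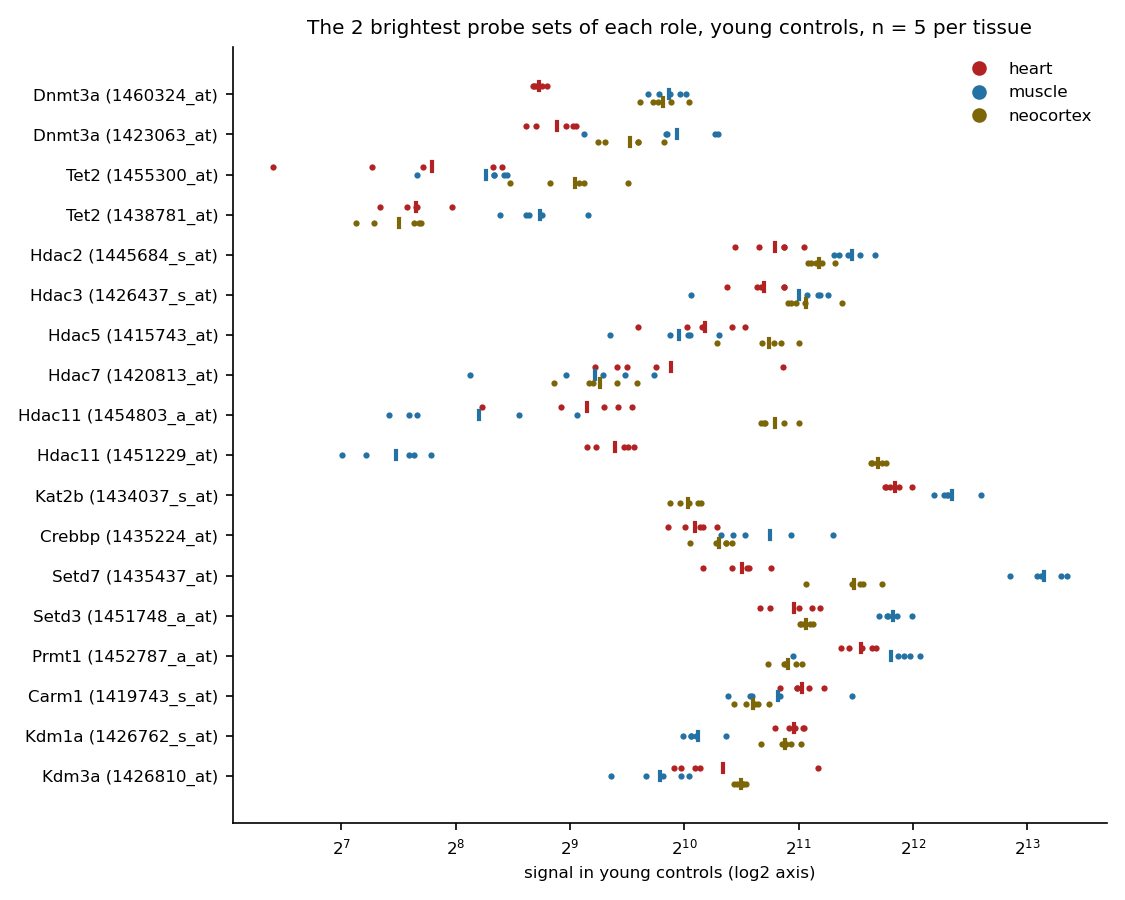
Signal in young controls of the 2 brightest probe sets of each role in heart, muscle and neocortex, on a log2 axis, with points for the 5 arrays of each tissue. Setd7 is highest in muscle and Hdac11 in neocortex, and signals compare tissues within a probe set only.

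Proteins that work with these enzymes were counted from lists of partners, to be read against the shares of all probe sets that rose and fell. Under CR these were 10.2% and 10.2% in heart, 19.4% and 13.4% in muscle and 11.7% and 14.6% in neocortex, under resveratrol 7.51% and 7.64%, 10.7% and 9.73%, and 11% and 13.1%, and with age in heart 5.4% and 6.58%. Of 17 tested corepressor partners of HDACs, 0 rose and 5 fell in heart under each diet, among them Mta1, a subunit of the NuRD complex (-0.70 under CR, -0.60 under resveratrol), and Gatad2a of the same complex (-0.65 and -0.64). In muscle 0 rose, and 5 fell under CR and 3 under resveratrol, with Mta2 at -1.20 and -1.05. In neocortex 3 rose and 8 fell under CR, and 1 rose and 4 fell under resveratrol. Of 11 COMPASS partners, which serve the Kmt2 and Setd1 methyltransferases, 1 rose and 3 fell in heart under CR, 0 and 2 in muscle, and 1 and 5 in neocortex. Under resveratrol 0 rose and 1, 2 and 3 fell in these tissues, with Hcfc1 among the falls in all (-0.53, -0.68 and -0.45).

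Of 9 PRC2 partners, which hold the Ezh enzymes, Phf1 had the largest differences. It rose with age in heart (0.80, SE 0.15, adjusted p = 0.000708) and fell there under CR (-1.14, adjusted p = 5.51e-06) and resveratrol (-1.05, adjusted p = 2.6e-05), and in neocortex (-0.87 and -0.91). In all, 2 of the 9 rose with age in heart, 0 rose and 3 fell under CR and 0 rose and 1 fell under resveratrol. Under CR and resveratrol, 1 and 2 rose and 2 and 1 fell in muscle, and 2 rose and 1 fell in neocortex under each. Of the 22 acetyltransferase partners, 0 rose and 6 fell in heart under CR and 1 rose and 5 fell under resveratrol, with Trrap, the scaffold of the Kat2a and Kat5 complexes, at -0.73 and -0.71. Of 21 tested in the other tissues, 1 rose and 3 fell in muscle under each diet, and in neocortex 1 rose and 6 fell under CR and 2 rose and 4 fell under resveratrol.

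Among other modifying enzymes, Dot1l, which methylates the globular part of histone H3, fell in neocortex (-0.81 under CR and -0.66 under resveratrol), and Jmjd6 fell in heart (-0.65 and -0.56) and muscle (-0.78 and -0.73). Of 23 tested, 1 rose and 6 fell under CR and 1 rose and 3 fell under resveratrol in heart, 0 rose and 6 and 2 fell in muscle, and of 21 in neocortex 2 rose and 7 fell under CR and 2 rose and 5 fell under resveratrol. Of 12 tested readers of DNA methylation and repair proteins, Gadd45b fell with age in heart (-0.84) and rose under CR (adjusted p = 1.24e-05) and resveratrol (0.60), Mbd1 rose with age there (0.58) and fell under resveratrol (-1.07), and Gadd45a rose with age in muscle (1.60). Counts for that list were 1 rise and 2 falls under CR and 2 and 2 under resveratrol in heart, 3 and 2 and then 2 and 0 in muscle, and, of 11 tested, 2 and 1 and then 3 and 1 in neocortex.

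Of the 7 sirtuins, which are NAD-dependent deacylases, Sirt1 passed only in neocortex under resveratrol (0.48, SE 0.12, adjusted p = 0.00443). Sirt3, the mitochondrial enzyme, rose in neocortex under CR (0.32) and resveratrol (0.25), in muscle under CR (0.57) and in heart under resveratrol (0.48). Sirt5 fell in heart (-0.46 and -0.33) and muscle (-0.61 and -0.69). Sirt2 fell in neocortex (-0.56 and -0.51) and, under resveratrol, in heart (-0.39). Among enzymes of methyl and acetyl donors, Mat2b, a subunit of the enzyme that makes S-adenosylmethionine, rose in heart (0.57 and 0.52) and neocortex (0.30 and 0.26), and the acetyl-CoA enzymes Acly and Acss2 fell in muscle under resveratrol (-1.81 and -0.68). Of the 9 tested in heart, 2 rose and 2 fell with age and 1 rose and 1 fell under each diet. Of 8 in muscle 0 passed under CR, and of 6 in neocortex 1 rose and 1 fell under each diet.

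Markers of other cell types moved with some groups. In heart, the summed signal of 5 fibroblast markers was 39150 to 46060 in old CR and 32970 to 44330 in old resveratrol, against 15460 to 32870 in old controls, and that of 7 macrophage markers was 17570 to 21030 and 15200 to 23310, against 10970 to 15120. Of 5 fibroblast markers 2 rose under CR and 3 under resveratrol, and of 7 macrophage markers 4 and 5. Red blood cell markers summed to 5535 to 22610 in old CR and 3369 to 7982 in old resveratrol, against 1858 to 3153 in old control hearts, although Hba-a1 was under the limit in all of them. Dividing-cell markers summed to 6184 to 6809 in old CR and 5784 to 7722 in old resveratrol, against 3609 to 4349 in old control hearts, and 1 of 5 tested rose under each diet. In muscle, 5 endothelial markers summed to 1487 to 2650 in old CR and 2291 to 2828 in old resveratrol, against 2856 to 4673 in old controls, and 3 of 5 fell under each diet. Macrophage markers in muscle summed to 5726 to 11370 in old CR and 6105 to 13460 in old resveratrol, against 4215 to 5776 in old controls, and 3 of 6 rose under each diet. In neocortex, 4 astrocyte markers summed to 6129 to 7301 in old CR against 7556 to 10990 in old controls, with 2 of 4 falling, and under resveratrol 3 of 6 neuron markers fell, with sums of 67350 to 74700 against 69290 to 81960. Dividing-cell markers there summed to 5848 to 6307 in old CR, against 4478 to 5532 in old controls. The part of these shifts in the changes of the members was not tested.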

How the data were processed

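Total RNA was extracted with Trizol and hybridised as biotinylated cRNA to 1 array of the mouse 430 2.0 type per sample. The deposited values are linear signal intensities, made by the authors with GCOS 1.2 (version as in the submitters' processing notes), 1 signal per probe set and array, and each array has its own scale. Arrays were rescaled to a trimmed mean of 500 (2% trimmed at each end), a floor of 1 was applied before taking log2. The precision is limited by the 5 arrays per group. The 64 control probe sets were left out, leaving 45037 of 45101, of which 34945 carry 1 gene symbol in the platform annotation, 932 several and 9160 none. A matching probe set with several symbols was left out (1 in all).

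In each tissue, 20 arrays in 4 groups were fitted with limma 3.58.1 (R 4.3.3, lmFit and eBayes with trend, two-sided), probe sets with a mean log2 signal at or over the 40th percentile were tested, and p-values were adjusted by Benjamini-Hochberg over all of them, with a threshold of 0.05. Differences between tissues used an interaction F test over 60 arrays and the 21448 probe sets tested in all 3 tissues. Overlap is of the ranges of signals. The fits were tested on simulated data, where both tests of differences between tissues made more false calls than their threshold allows. Python 3.11.15, pandas 2.3.3, numpy 2.4.6 and matplotlib 3.10.9 were used for the rest. Promoters are RefSeq entries on GRCm38.p6.

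The members, and the lists of partners (PRC2, COMPASS, HDAC corepressor and acetyltransferase partners, other modifying enzymes, DNA methylation readers and repair, sirtuins, donor enzymes) and of cell type markers, were chosen with earlier results of these data known. Genes were named as the 4 largest rises and falls per tissue and comparison, the probe set with the lowest adjusted p of each role for either diet, all Dnmt3a probe sets, members called alike under both diets in all tissues, and the 2 brightest of each role for levels. Other members and probe sets, and the partner genes, were chosen after their values were seen. Alternatives covered scaling, normalization, the floor, the filter, the variance prior, the test, the groups fitted, the unit of testing, the replicate numbers and single arrays.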

Additional observations from a re-analysis of the deposited data

Results flagged for a closer look

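In 6 of 151 groups of 5 arrays that were examined for named members, 1 array lay far from the other 4, and chance alone gives about 1 in 20 such groups. Dnmt3a (1460324_at) had a signal of 110.8 in muscle old CR replicate 2, against 399.8 to 632.3 in the rest of its group. Hdac2 (1449080_at) had a signal of 590.8 in muscle old resveratrol replicate 4, against 426.7 to 460.6 in the rest of its group. Kdm2b (1459861_s_at) had a signal of 532.2 in neocortex old control replicate 5, against 604.0 to 626.4 in the rest of its group. Kdm6b (1456610_at) had a signal of 103.9 in muscle old CR replicate 2, against 711.3 to 1176 in the rest of its group. Kdm7a (1435867_at) had a signal of 559.9 in muscle old CR replicate 2, against 833.4 to 903.2 in the rest of its group. Prmt5 (1427439_s_at) had a signal of 638.6 in muscle old CR replicate 2, against 938.9 to 1085 in the rest of its group. Muscle old CR replicate 2 was the low array in 4 of the 6.

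Differences between tissues were tested by the interaction F test, and adjusted p-values from limma follow. With age the tissues differed for Ezh1 (1418290_a_at, adjusted p = 0.005887), Dnmt3a (1423063_at, adjusted p = 0.01089), Kmt5c (1424059_at, adjusted p = 0.002298), Prmt5 (1427439_s_at, adjusted p = 0.0002841) and Kat2b (1450821_at, adjusted p = 0.01226). Under CR they differed for Ezh1 (1418290_a_at, adjusted p = 0.03557), Hdac7 (1420812_at, adjusted p = 0.0008457), Kmt5a (1426406_at, adjusted p = 0.0005593), Prmt3 (1431768_a_at, adjusted p = 0.0006172), Hdac9 (1434572_at, adjusted p = 6.577e-05), Setd7 (1435437_at, adjusted p = 0.000974), Tet2 (1438781_at, adjusted p = 0.001123), Kat2b (1450821_at, adjusted p = 2.568e-08), Hdac11 (1454803_a_at, adjusted p = 3.14e-05), Kdm6b (1456610_at, adjusted p = 6.361e-06) and Dnmt3a (1460324_at, adjusted p = 0.004929). Under resveratrol they differed for Hdac7 (1420812_at, adjusted p = 0.004609), Kdm4b (1424044_at, adjusted p = 0.001235), Kmt2a (1427283_at, adjusted p = 0.04101), Kmt2d (1435550_at, adjusted p = 0.004957), Tet2 (1438781_at, adjusted p = 0.01706), Hdac2 (1445684_s_at, adjusted p = 4.446e-07), Kdm6b (1447612_x_at, adjusted p = 0.01366), Hdac2 (1449080_at, adjusted p = 0.0001464), Kat2b (1450821_at, adjusted p = 2.357e-06), Hdac11 (1454803_a_at, adjusted p = 0.0001022), Tet1 (1455425_at, adjusted p = 0.004991), Kdm6b (1456610_at, adjusted p = 1.272e-07) and Dnmt3a (1460324_at, adjusted p = 0.02432). With a variance for each tissue, Kmt2a under resveratrol had an adjusted p of 0.07936 and the others stayed under 0.05.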

How the results depend on the processing

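Of 95 named results past the threshold, 66 kept their call under every alternative, 29 lost it under at least 1, of which 22 on leaving out 1 array, and 0 reversed. The methods' t-test ended 23 of them, quantile normalization 12, no filter 12, the fit without the trend 5, only the 2 groups fitted 5 and the replicate block 2. With 1 probe set per gene, fewer features were tested and 8 members passed for age in heart, 1 for age in muscle, 21 for CR in heart, 21 in muscle and 27 in neocortex, 17 for resveratrol in muscle and 25 in neocortex, 1 for CR minus resveratrol in muscle, 4, 24 and 27 for the tissue differences in age, CR and resveratrol, and 35, 42 and 42 for levels (heart minus muscle, heart minus neocortex, muscle minus neocortex). The methods' t-test after adjustment called 10 for age in heart, 0 for age in muscle, and 0 and 5 for CR minus resveratrol in heart and neocortex. For CR minus resveratrol in heart the count was 0 with quantile normalization, 0 with no filter, 0 without the trend, 2 at the 60th percentile filter and 2 with only the 2 groups fitted, and in muscle it was 1 at the 60th percentile. For age in muscle it was 1 with quantile normalization and 1 with only the 2 groups. The counts under these alternatives are of members alone. They show how the calls move with the setting and are not set against the share of all probe sets.

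Alternatives chosen after seeing the data left out 2 outlying arrays per tissue, which gave 11 for age in heart, 4 for CR minus resveratrol in heart and 4 for age in muscle, and gave each tissue its own variance, which called 13 for the tissue difference in age. Leaving out 1 array gave 10 (without old control replicate 4) to 18 for age in heart, 24 to 36 for CR and 15 to 28 for resveratrol in heart, 1 to 6 for age in muscle (6 without young control replicate 4), 34 to 46 and 22 to 38 for CR and resveratrol in muscle, and 41 to 48 and 39 to 48 in neocortex. CR minus resveratrol ranged over 0 to 3 in heart, 0 to 2 in muscle and 7 to 14 in neocortex. Tissue differences ranged over 6 to 19 for age (19 without muscle young control replicate 4, 13 without muscle old CR replicate 2), 37 to 49 for CR and 39 to 52 for resveratrol, and levels over 59 to 69, 63 to 77 and 73 to 85.

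Directions turned on leaving out 1 array only for Dnmt3a values that had not passed. For age in neocortex, 1423063_at ranged over -0.0302 to 0.1126 (with -0.0165) and 1423064_at over -0.1163 to 0.0894 (with 0.0016, 0.0197 and 0.0170). For resveratrol in muscle 1423064_at ranged over -0.3068 to 0.1826 (with 0.0594 and 0.1042), for CR in neocortex 1460324_at over -0.1387 to 0.0051, and for age in muscle 1460324_at over -0.0618 to 0.0509 (with 0.0007, 0.0228, 0.0355 and 0.0363). The causes were not tested.

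Within a tissue, same-numbered samples of different groups correlated at -0.226 to 0.119 around their group means. The highest mean was 0.059, for CR in muscle, against -0.014 for samples of other numbers. Correlations this low give little sign of pairing within a tissue. Whether equal numbers mark the same mouse in different tissues was not tested. With the replicate block the counts for age, CR and resveratrol were 17, 33 and 20 in heart, 2, 44 and 31 in muscle and 0, 44 and 46 in neocortex, for CR minus resveratrol 1, 0 and 12, for tissue differences 8, 41 and 43, and for levels 68, 74 and 80. Signals under the 40th percentile limit how well the size of a log2 change is known.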
